A study of Homo sapiens with 8 samples.

Results

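The sodium-potassium pump subunits examined here were the genes ATP1B1, ATP1B2, ATP1B3 and FXYD5, read by 8 probes of an expression array that measured 20046 named genes with 48107 probes in all. They were taken by gene symbol, with every probe of a symbol kept, and were chosen because ATP1B1 was dim in parental cells and bright in all 3 drug-resistant sublines. The choice therefore used the levels in the sublines, and differences between sublines and parental cells are given as a description without a test. That reason held for 1 of the 2 ATP1B1 probes, since the other already read well above background in parental cells. A204, the established human line used throughout, comes from a malignant rhabdoid tumor (MRT) and has lost SMARCB1, which encodes part of the SWI/SNF chromatin remodeler. The resistant group held the sublines DasR, PazR and SunR, each selected by stepwise increases of dasatinib, pazopanib or sunitinib and profiled in 5 µM of its own tyrosine kinase inhibitor (TKI), with 1 array each. In the treated parental group, unselected A204 cells received the same dose of dasatinib, pazopanib or sunitinib, again with 1 array per drug. The untreated parental group had 2 arrays of A204 cells without drug, called replicates 1 and 2. All groups share the SMARCB1 loss, each subline is a single selection, and the duration of the treatment of parental cells is not given in the sources used here. The untreated arrays are labeled as without drug while the study's text names a DMSO control, so the presence of vehicle is unsettled.

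The sodium-potassium pump is a membrane ATPase that carries sodium out of the cell and potassium in, and the gradients it builds drive many cotransporters and exchangers. Its catalytic alpha subunit needs a glycosylated beta subunit to fold, leave the endoplasmic reticulum and reach the cell surface, and a small FXYD protein can join the complex and tune its ion affinity. ATP1B1 encodes the widely expressed beta-1 subunit, which also forms bridges between neighboring epithelial cells. ATP1B2 encodes beta-2, known in the nervous system as the adhesion molecule on glia, and ATP1B3 encodes beta-3. FXYD5, or dysadherin, encodes an FXYD protein that has been linked to weaker cell adhesion through E-cadherin in carcinoma cells. The alpha subunit genes were not analysed here.

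In the GRCh38.p14 assembly ATP1B1 lies at chr1:169106690-169132719, ATP1B3 at chr3:141876643-141926549, ATP1B2 at chr17:7646627-7657770 and FXYD5 at chr19:35154735-35169881. The start regions of ATP1B1 and ATP1B3, the members with the higher signals in the sublines, are shown because both were higher in all 3 sublines. They are RefSeq sequences on the plus strand, 300 bases long, at chr1:169106440-169106739 and chr3:141876393-141876692, and all 4 members matched an entry. Capitals mark matches to 3 motifs searched on both strands: the GC box (GGGCGG or CCGCCC), the E-box bound by SNAI and ZEB repressors (CACCTG or CAGGTG) and the hexamer of steroid receptor elements (AGAACA or TGTTCT).
ATP1B1: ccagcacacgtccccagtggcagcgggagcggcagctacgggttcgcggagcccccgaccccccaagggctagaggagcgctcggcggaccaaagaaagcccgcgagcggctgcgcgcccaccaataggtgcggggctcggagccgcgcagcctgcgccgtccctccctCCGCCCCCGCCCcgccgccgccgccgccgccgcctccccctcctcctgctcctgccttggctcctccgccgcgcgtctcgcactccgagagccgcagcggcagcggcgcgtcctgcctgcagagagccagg
ATP1B3: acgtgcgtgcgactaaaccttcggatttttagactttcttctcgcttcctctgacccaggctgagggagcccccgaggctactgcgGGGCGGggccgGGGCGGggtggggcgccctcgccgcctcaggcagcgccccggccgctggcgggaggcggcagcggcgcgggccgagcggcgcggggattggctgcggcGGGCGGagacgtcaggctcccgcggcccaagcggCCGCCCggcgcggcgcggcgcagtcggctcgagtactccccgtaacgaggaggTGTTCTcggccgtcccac
ATP1B1 held 2 GC boxes, starting at -81 and -75 relative to the annotated start site, and neither of the other motifs. ATP1B3 held 4 GC boxes, at -164, -153, -55 and -21, and 1 steroid hexamer, at 32. FXYD5 held 1 GC box and ATP1B2 none of the motifs. No matched bases were shared between motifs. Of 35116 promoters of the same length, 45.0% held a GC box, 20.6% the E-box and 14.8% the steroid hexamer. Both printed windows were rich in G and C, at 77.0% for ATP1B1 and 75.0% for ATP1B3, compared with 69.0% for FXYD5 and 49.0% for ATP1B2. These letters are a description of the sequence, and nothing was measured on the promoters.

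Signals were log2 intensities, quantile normalized by the authors, with a median of 6.67 on each array. The SMARCB1 probes, for a gene deleted in these cells, averaged 6.73 and 6.82 over the 8 arrays, and signals up to 6.82 were not taken as evidence of expression. None of the 6 epithelial and 6 endothelial marker genes had a probe mean above that level, and CD14 (6.84) was the only one of 5 measured leukocyte genes that did. Above it were also MBP, SNAP25 and TUBB3 of 8 measured glial and neuronal genes and MYH3 and TNNT1 of 6 measured myogenic genes. The untreated arrays differed from each other in a way that follows the groups. Over all probes, untreated replicate 1 had a mean r of 0.982 to the sublines and 0.970 to treated parental cells. Replicate 2 had 0.969 to the sublines and 0.979 to treated parental cells. With each other the untreated arrays had an r of 0.983, no lower than any of these means. The sets were taken as the sublines with untreated replicate 1, and treated parental cells with untreated replicate 2. Values with these sets of arrays as a term in the fit are therefore given beside the differences. Only the untreated group spans both sets, so the term rests on the difference between its 2 arrays. Against treated parental cells the fit subtracts that difference, and against untreated cells it compares the sublines with replicate 1 alone. Precision is limited by the small number of arrays. No label states that the 2 untreated arrays came from separate cultures, so their spread may be technical. The other arrays are of different sublines or different drugs, with 1 array each, so their spread also holds those differences. P-values therefore reflect only how far these arrays spread.

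ATP1B1 was higher in every subline than in every parental array, by both of its probes. The probe ILMN_1658071 read 8.71 in DasR, 10.27 in PazR and 10.76 in SunR, against 6.73, 6.65 and 6.48 in parental cells in dasatinib, pazopanib and sunitinib. It read 6.65 and 6.34 in untreated replicates 1 and 2. All 5 parental values thus stood below the SMARCB1 level and all 3 subline values far above it, at percentiles 84.9, 93.4 and 95.1 of their arrays. The mean (± SD) was 9.91 ± 1.07 in the sublines, 6.62 ± 0.13 in treated parental cells and 6.49 ± 0.22 in untreated cells (n = 3, 3 and 2 arrays). Parental arrays were also raised to the SMARCB1 level, a bound set after the values were seen. By this probe the sublines were then at least 8.53-fold higher than treated parental cells and at least 8.53-fold higher than untreated cells. The normalized signals themselves differed by 3.30 on the log2 scale (SE 0.40) from treated parental cells and by 3.42 (SE 0.42) from untreated cells, but a reading at background gives no exact fold. With the array sets as a term these differences were 2.98 (SE 0.80) and 3.27 (SE 0.56). In such bulk samples, more cells expressing a gene and more RNA per cell cannot be told apart.

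The other ATP1B1 probe, ILMN_1730291, is annotated to the same RefSeq transcript and was not at background in parental cells. It read 8.80 in DasR, 9.73 in PazR and 10.07 in SunR, against 8.08, 7.99 and 8.15 in parental cells in dasatinib, pazopanib and sunitinib. The untreated arrays read 7.84 and 7.75, the lowest of the 8. The parental arrays thus spanned a narrow range, at percentiles 77.0 to 80.6 of their arrays, with all 3 treated arrays above both untreated arrays. The sublines averaged 9.53 ± 0.66, treated parental cells 8.07 ± 0.08 and untreated cells 7.80 ± 0.06 (SD, n = 3, 3 and 2). The difference was 1.46 (SE 0.29) from treated parental cells, or 2.75-fold, and 1.74 (SE 0.31) from untreated cells, or 3.33-fold. They were 1.37 (SE 0.57) and 1.69 (SE 0.40) once the array sets were a term. Over the 8 arrays, which share their groups and their normalization, the probes correlated at r = 0.99, and over the 5 parental arrays at r = 0.41. The size of the ATP1B1 difference thus differed between the probes, while the order of the 3 sublines did not.

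**Figure D1:**
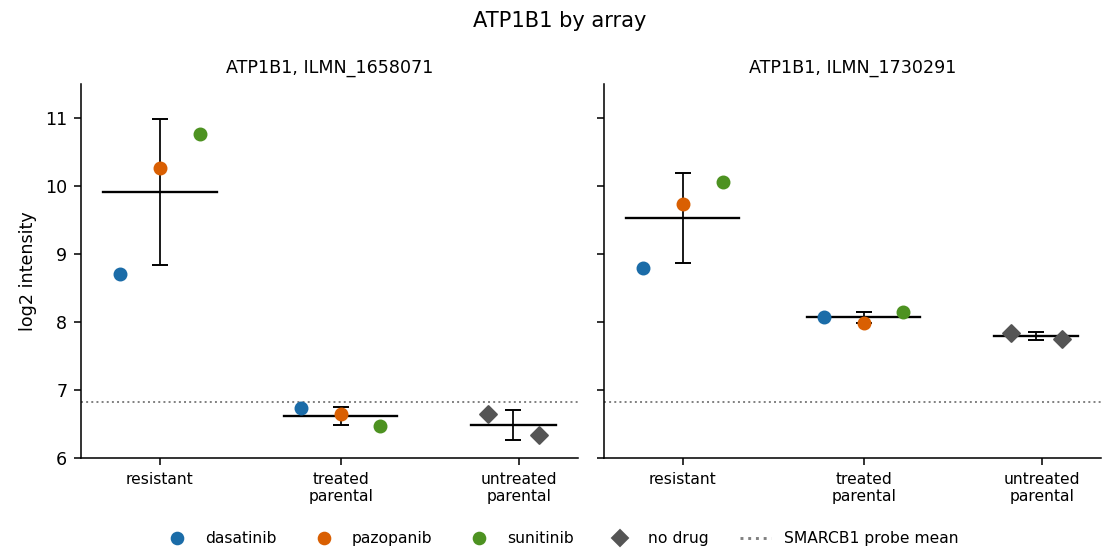
ATP1B1 signal (log2 intensity) of both probes in the 8 arrays, with a point for each array colored by drug, a black line at each group mean and a bar of 1 SD. The resistant points lie between 8.71 and 10.76 on the left panel and between 8.80 and 10.07 on the right panel, above all parental points, and only the left panel has parental points below the dotted SMARCB1 level (6.82).

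The sublines differed among themselves more than the parental arrays did. SunR was highest and DasR lowest by both ATP1B1 probes, and within each drug the same order held. By ILMN_1658071, with parental readings again raised to the SMARCB1 level, DasR was at least 3.7-fold above parental cells in dasatinib, PazR at least 10.9-fold above parental cells in pazopanib, and SunR at least 15.4-fold above parental cells in sunitinib. By ILMN_1730291, which was above that level throughout, the log2 differences were 0.72 in DasR, 1.75 in PazR and 1.92 in SunR. As folds these were 1.64, 3.36 and 3.78, below the bounds from ILMN_1658071, which hold for the signal of that probe only. A log2 rise of more than 1 was seen in 2.06% of probes for dasatinib, 1.53% for pazopanib and 1.78% for sunitinib. These are differences of single arrays and have no replicate check. The untreated arrays differed by 0.31 and 0.09 on these probes.

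ATP1B3, the beta-3 gene, was also higher in each subline than in each parental array by its bright probe, ILMN_1654322. It read 10.22 in DasR, 10.18 in PazR and 10.33 in SunR, against 9.12, 9.50 and 9.16 in parental cells in dasatinib, pazopanib and sunitinib. The untreated arrays read 9.76 in replicate 1 and 9.25 in replicate 2. Replicate 1 was the parental array closest to the sublines, and the treated and untreated parental ranges overlapped. The sublines had a mean of 10.24 ± 0.08, treated parental cells one of 9.26 ± 0.21 and untreated cells one of 9.51 ± 0.36 (SD, n = 3, 3 and 2). The sublines exceeded treated parental cells by 0.98 (SE 0.22), or 1.98-fold, and untreated cells by 0.74 (SE 0.26), or 1.67-fold. With the array sets as a term the difference was 0.48 (SE 0.43) from treated parental cells and 0.48 (SE 0.30) from untreated cells, and the untreated arrays themselves differed by 0.50. Leaving out untreated replicate 2 gives the same 0.48 from untreated cells by construction, since both fits compare the sublines with replicate 1. Unlike ATP1B1, ATP1B3 had nearly the same level in the 3 sublines, between 10.18 and 10.33. The same-drug differences were 1.10 for dasatinib, 0.68 for pazopanib and 1.17 for sunitinib. The other ATP1B3 probe, ILMN_1741115, read 6.38 to 6.62 in all arrays, below the SMARCB1 level, and ATP1B3 therefore rests on 1 probe.

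The study's methods name Signal2Noise, which divides the difference of the means by the sum of the SDs, for ranking genes. It was 3.41 for ATP1B3 ILMN_1654322, 2.75 for ATP1B1 ILMN_1658071 and 1.98 for ATP1B1 ILMN_1730291. These are a description, since the members were chosen on the levels in the sublines. The SD of ATP1B1 within the sublines, at 1.07 by ILMN_1658071 and 0.66 by ILMN_1730291, was larger than that of ATP1B3 ILMN_1654322, at 0.08.

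ATP1B2 was not detected above the SMARCB1 level in any group. Its only probe, ILMN_1747271, read 6.70, 6.59 and 6.70 in DasR, PazR and SunR, against 6.65, 6.52 and 6.50 in treated parental cells and 6.68 and 6.54 in untreated cells. The 3 ranges overlapped, and all 8 values lay between 6.50 and 6.70. A difference of beta-2 RNA was not detectable with this probe.

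FXYD5 was a bright gene in all arrays, and its bright probes were on average lower in the sublines, with ranges that overlapped. The probe ILMN_2309848 read 11.33 in DasR, 11.49 in PazR and 12.01 in SunR. It read 11.86, 11.64 and 12.20 in parental cells in dasatinib, pazopanib and sunitinib, and 11.96 and 11.79 in untreated replicates 1 and 2. Only DasR and PazR lay below all parental arrays. Averages were 11.61 ± 0.36 in the sublines, 11.90 ± 0.29 in treated parental cells and 11.88 ± 0.12 in untreated cells (SD, n = 3, 3 and 2). The sublines differed by -0.29 (SE 0.23) from treated parental cells and by -0.27 (SE 0.25) from untreated cells. They were -0.46 (SE 0.45) and -0.35 (SE 0.32) once the array sets were a term. Without single arrays they ranged over -0.49 (without SunR) to -0.14 (without parental cells in sunitinib) and over -0.46 (without SunR) to -0.13 (without DasR).

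The probe ILMN_1704286, annotated to another RefSeq transcript of FXYD5, read 10.09 in DasR, 10.66 in PazR and 11.20 in SunR. Against these stood 11.31, 10.86 and 11.65 in parental cells in dasatinib, pazopanib and sunitinib and 10.74 and 11.29 in untreated replicates 1 and 2. Again DasR and PazR were below all parental arrays, whereas SunR lay among them. The difference was -0.62 (SE 0.30) from treated parental cells and -0.37 (SE 0.34) from untreated cells, and with the array sets as a term -0.07 (SE 0.60) and -0.09 (SE 0.43). Without DasR it was -0.35 from treated parental cells and -0.09 from untreated cells. Without untreated replicate 1 the difference from untreated cells was -0.65, and without SunR it was -0.64. Without untreated replicate 2 it was -0.09, by construction the value with the array sets. DasR stood apart from its parental counterpart by -1.21 on this probe and by -0.53 on ILMN_2309848, compared with -0.20 and -0.14 for PazR and -0.45 and -0.19 for SunR. In both the resistant and the treated parental group the array in sunitinib was the highest of the 3 by both bright probes. The dim probe ILMN_2235975 read 6.80 to 7.26, close to the SMARCB1 level, and its means differed by 0.02 between sublines and treated parental cells. The bright FXYD5 probes correlated at r = 0.84 over the 8 arrays.

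**Figure D2:**
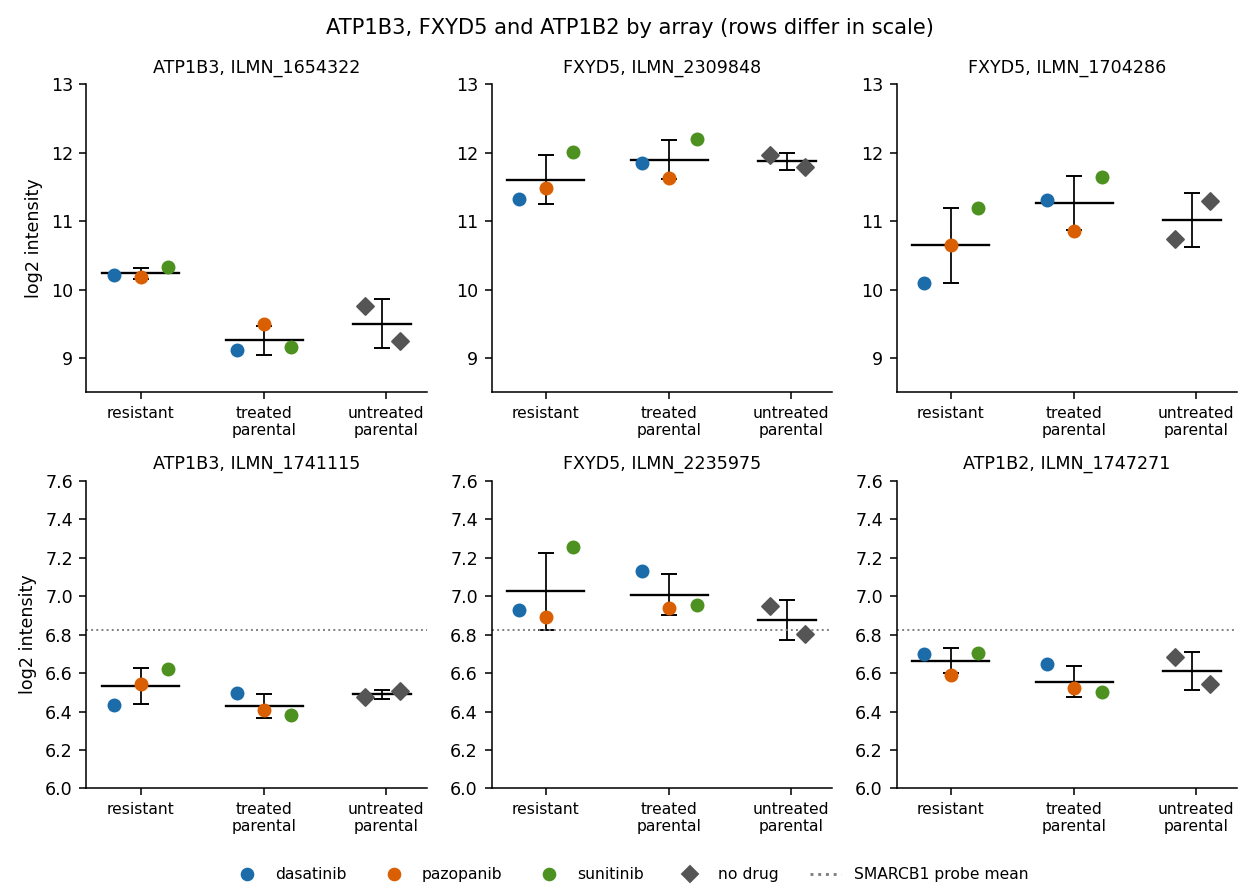
Signals (log2 intensity) of the other 6 probes in the 8 arrays, drawn as points colored by drug with group means and bars of 1 SD. The upper row holds the bright probes and the lower row, on its own scale, the dim probes with the SMARCB1 level dotted. Only ATP1B3 ILMN_1654322 has all resistant points (10.18 to 10.33) above all parental points.

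Counted over the members, 3 of the 8 probes (both of ATP1B1 and 1 of ATP1B3) had all sublines above all treated parental arrays and none had all sublines below. Of all 48107 probes, 12.5% had all sublines above and 13% all sublines below, and limma called 6.04% (2.71% higher and 3.33% lower). Against untreated cells the same 3 probes lay wholly above, where 11.1% of all probes did and 12.4% lay wholly below. The members were chosen on these contrasts, and these counts are a description only. Both comparisons use the same subline arrays.

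**Figure D3:**
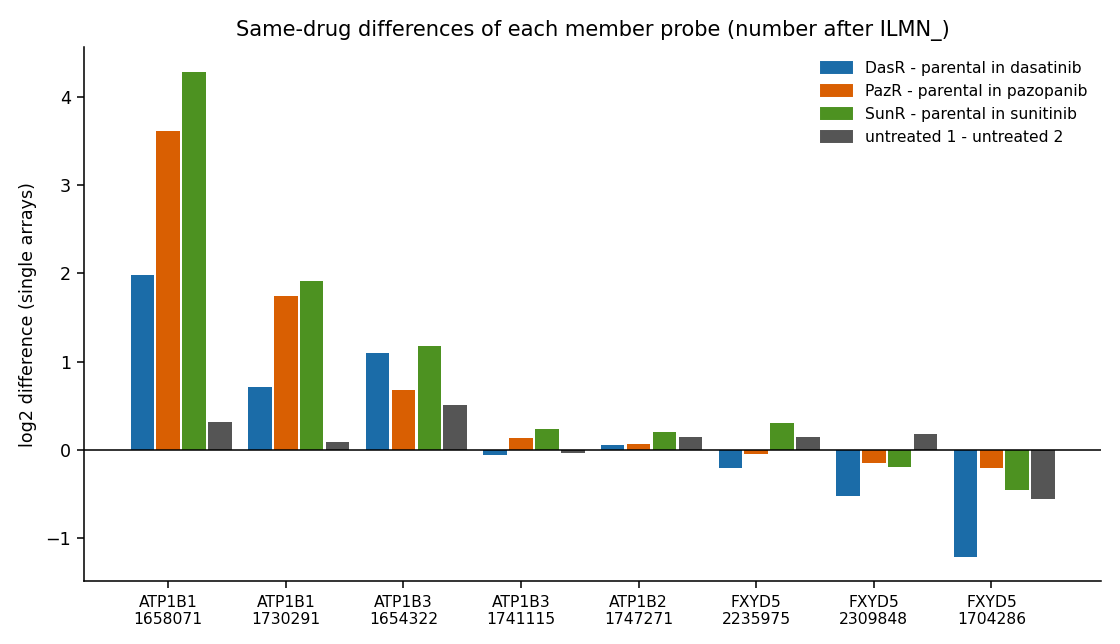
Differences of single arrays (log2) for each of the 8 member probes, with bars for DasR, PazR and SunR minus the parental array in the same drug and for untreated replicate 1 minus replicate 2. The bars of ATP1B1 ILMN_1658071, measured from parental signals at background, climb to 4.29 for SunR, the ATP1B3 ILMN_1654322 bars stand at 0.68 to 1.17 beside an untreated difference of 0.50, and the lowest FXYD5 bar is DasR at -1.21.

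Whether a TKI alone moved the pump genes was asked of parental cells with and without drug. In 3 of the 8 probes (ATP1B1 ILMN_1658071, ATP1B2 and ATP1B3 ILMN_1741115) all 5 parental arrays lay below the SMARCB1 level, so a change there was hardly detectable. ILMN_1658071 was moreover chosen as dim in parental cells, and its difference of 0.13 between treated and untreated cells is a description only. None of the other 5 probes passed (limma, adjusted p under 0.05, lowest adjusted p = 0.737), and none had an unadjusted p under 0.05. Over all 48107 probes 2 passed, or 0.00416%. ATP1B1 differed by 0.28 (95% confidence interval -0.39 to 0.94, adjusted p = 0.77) by ILMN_1730291. On ILMN_1730291 the treated arrays, at 7.99 to 8.15, lay wholly above the untreated ones, at 7.75 and 7.84, as 14.1% of all probes did. ATP1B3 differed by -0.25 (-0.80 to 0.31) and FXYD5 by 0.02 (-0.51 to 0.56) and 0.25 (-0.48 to 0.99) by their bright probes. These intervals reach up to 0.99, so they do not show that the drugs left the pump genes as they were.

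The genes whose pattern over the 8 arrays was most like that of ATP1B1 were sought among 4803 probes with a gene name, a mean in the brighter 50% and a range of at least 1, by Pearson's r with ILMN_1730291, the brighter ATP1B1 probe. The highest were PGD (r = 0.992), an enzyme of the pentose phosphate pathway, CAMK2N1 (0.991), an inhibitor of calmodulin-dependent kinase, ZNF831 (0.985), a zinc finger protein, TM7SF3 (0.984), a membrane protein, and FHL2 (0.982), a LIM domain protein. PGD read 10.86, 11.68 and 12.09 in DasR, PazR and SunR, against 9.96, 9.87 and 10.38 in treated parental cells and 9.80 and 9.75 in untreated cells. It thus had the same order of sublines as ATP1B1. CAMK2N1 read 8.97, 11.01 and 11.87 in the sublines, against 7.94, 7.62 and 8.46 in treated parental cells and 7.50 and 7.57 in untreated cells. With the other ATP1B1 probe these 5 genes had r of 0.964 to 0.976. The most opposite were LOX (-0.957), which crosslinks collagen, PLS1 (-0.956), an actin bundler, TFB1M (-0.952), a methyltransferase of mitochondrial ribosomal RNA, GNB4 (-0.952), a G protein beta subunit, and RAP1GDS1 (-0.948), a regulator of small GTPases. LOX read 9.52, 9.06 and 8.89 in the sublines, against 10.72, 11.10 and 10.63 in treated parental cells and 10.66 and 10.74 in untreated cells. These r are a description over 8 arrays that share 3 groups and 1 normalization.

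**Figure D4:**
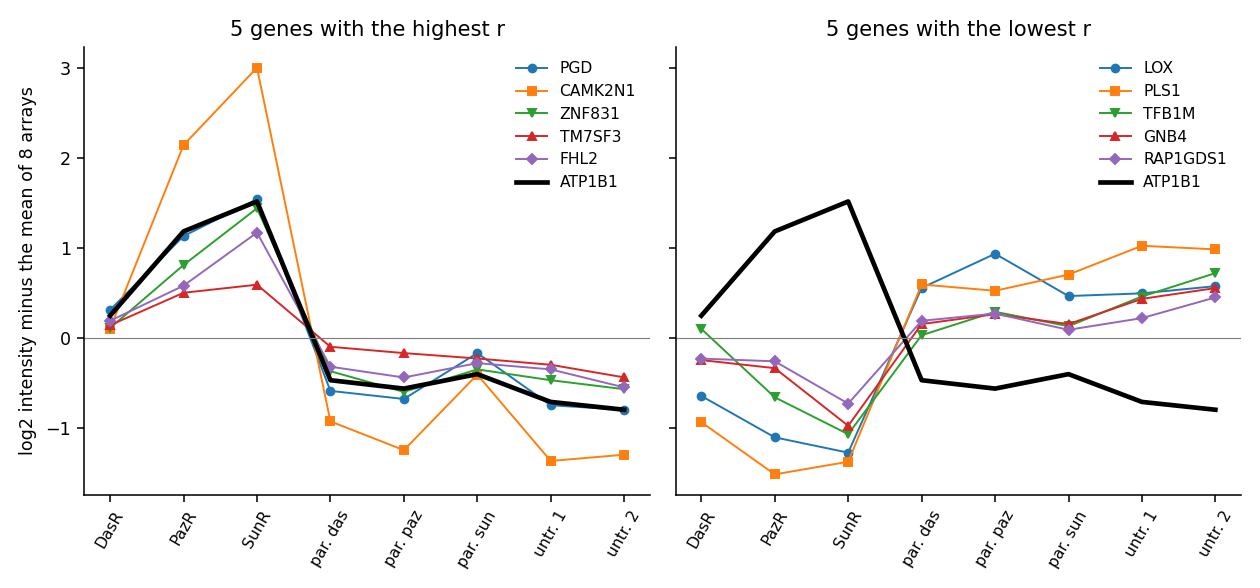
Signals of the 5 genes with the highest r (left) and the 5 with the lowest r (right) with ATP1B1 ILMN_1730291, each as log2 intensity minus its mean over the 8 arrays, which run along the x axis. ATP1B1 is the thick black line. On the left the lines climb from DasR to SunR and drop to the parental arrays, and on the right the lines lie lower in the sublines, apart from TFB1M in DasR.

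The genes around the pump were counted from lists of 78 genes, of which 68 were measured, and were tested between the sublines and treated parental cells. In all 2 genes were higher and 5 lower in the sublines (limma, adjusted p under 0.05), which is 10.3% of the genes, beside 9.19% of all 20046 named genes (4.71% with a probe called higher and 4.52% called lower). The share was therefore near that of all genes. Among the other 6 FXYD genes, whose products tune the pump in kidney, heart and nerve, and the 4 relatives ATP1B4, ATP4A, ATP4B and ATP12A, none was called, with changes of -0.34 to 0.10. Their probe means were all below the SMARCB1 level apart from FXYD7 (6.84), so a change there was hardly detectable. Median changes over the brightest probe of each gene were -0.08 for the FXYD genes and -0.01 for the relatives, beside 0.00 for all named genes.

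Of 15 measured cotransporters, exchangers and sodium channels 1 was called. SLC8A2, a sodium-calcium exchanger, was lower by 0.40 (SE 0.09, adjusted p = 0.0225) and stood at 6.49 in the sublines, against 6.89 in treated parental cells, signals next to the SMARCB1 level. Untreated cells averaged 6.56, nearer to the sublines. SLC4A7, a sodium bicarbonate cotransporter, was bright and had means of 11.21 in the sublines and 10.52 in treated parental cells by ILMN_2200917 (adjusted p = 0.0686). SLC12A2, the sodium-potassium-chloride cotransporter that the pump gradient feeds, differed by 0.29 (adjusted p = 0.48) and 0.16 (0.682) by its probes.

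Of 15 kinases, ligases and receptors that regulate sodium transport 2 were called. NEDD4, a ubiquitin ligase, rose by 0.72 (SE 0.16, adjusted p = 0.0225) by a probe with a mean of 7.38 in the sublines and 6.66 in treated parental cells, where all 3 arrays lay below the SMARCB1 level, while the untreated arrays read 7.39 and 7.13. Its brightest probe stood the other way, at -0.42 (adjusted p = 0.321), and a dim probe at 0.10. SGK3, a kinase of the family that regulates sodium transport, was lower by 0.50 (SE 0.12, adjusted p = 0.0385), with its brightest probe at -0.43 (0.112) and a dim probe at -0.12. By the called probe the means were 6.93 in the sublines, 7.43 in treated parental cells and 7.42 in untreated cells. SGK1, the best known kinase of that family, was bright, with means of 12.76 in the sublines and 12.51 in treated parental cells by its brightest probe (adjusted p = 0.361). Its other bright probes stood the other way, at 12.06 against 12.25 and at 12.21 against 12.29. A dimmer SGK1 probe stood at 7.39 against 6.96. The kinase WNK1 read 9.76 in the sublines and 10.51 in treated parental cells by its brightest probe (adjusted p = 0.075).

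Of 11 calcium and copper pumps, which belong to the same P-type ATPase family, 1 was called. ATP2A3, a calcium pump of the endoplasmic reticulum, was lower by 0.32 (SE 0.08, adjusted p = 0.0398), at 6.55 in the sublines against 6.87 in treated parental cells, again near the SMARCB1 level. Untreated cells averaged 6.60, nearer to the sublines. ATP2A2, its widely expressed relative, had adjusted p-values of 0.242 to 0.772 over 3 bright probes.

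Cadherins and the repressors of epithelial genes were listed because FXYD5 and the beta subunits are tied to cell adhesion. E-cadherin (CDH1) itself was at 6.44 in the sublines and 6.47 in treated parental cells, below the SMARCB1 level. CDH11, a mesenchymal cadherin, fell by 0.93 (SE 0.19, adjusted p = 0.0164), reading 6.56, 6.72 and 7.30 in DasR, PazR and SunR, against 7.89, 7.51 and 7.96 in treated parental cells and 8.40 and 7.72 in untreated cells. DasR and PazR lay below the SMARCB1 level, so the size of the CDH11 difference is not exact. CDH11 was the only one of 11 cadherins and catenins called. Of 6 repressors, ZEB1 was higher by 0.50 (SE 0.12, adjusted p = 0.0291), at 7.01 in the sublines against 6.51 in treated parental cells and 6.61 in untreated cells. All 5 parental arrays lay below the SMARCB1 level, so the size of this difference is not exact. SNAI2 was lower by 0.89 (SE 0.23, adjusted p = 0.0477), at 11.35 in the sublines against 12.24 in treated parental cells, while its other probe stood at -0.44 (adjusted p = 0.472). By the called probe untreated cells averaged 11.61, nearer to the sublines.

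Each of these 7 calls ended without some single array. The count was 1 without the parental array in dasatinib (ZEB1) or in pazopanib (CDH11), 3 without DasR or SunR and 2 without PazR. With the array sets as a term none of the 7 passed (adjusted p of 0.973 to 0.974), in a fit that called 1 of all 48107 probes, or 0.00208%. The differences were then larger in size for CDH11 (-1.60), SNAI2 (-1.32) and ATP2A3 (-0.42). They were smaller for SGK3 (-0.47), NEDD4 (0.45), ZEB1 (0.17) and SLC8A2 (-0.16). With the drug as a block the count was 10, without ATP2A3 (adjusted p = 0.0577) and with ATP7B, FXYD7, SGK1 and TWIST1. Against untreated cells none of the 68 genes passed in the sublines, where 0.509% of all named genes did. There 13 of the 134 probes had an unadjusted p under 0.05, beside 3494 of all 48107. Nor did any pass between treated and untreated parental cells, where 0.00499% of all named genes were called. There 22 of the 134 probes had an unadjusted p under 0.05 (limma), beside 5962 of all 48107.

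**Figure D5:**
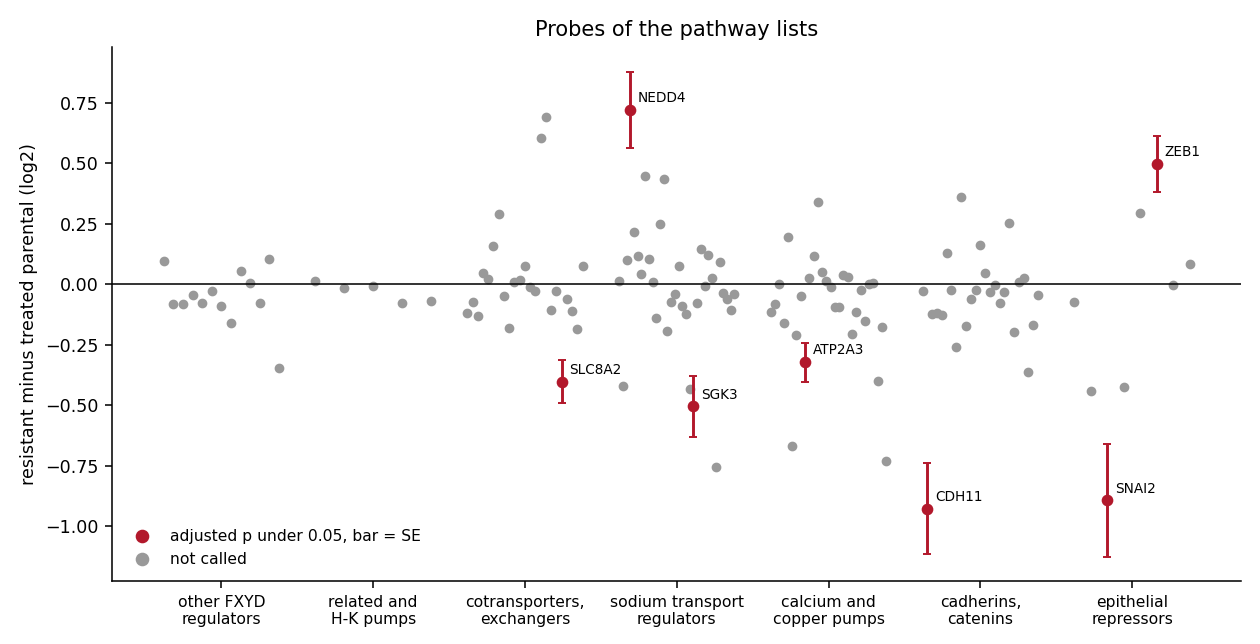
Difference between sublines and treated parental cells (log2) for each of the 134 probes of the pathway lists, grouped by list along the x axis. Red points with SE bars are the 7 called probes, from CDH11 at -0.93 to NEDD4 at 0.72, and grey points were not called.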

How the data were processed

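RNA of 8 A204 samples was labeled with biotin and measured on Illumina HumanHT-12 arrays. The authors preprocessed, log2-transformed and quantile normalized the signals with beadarray, and what they deposited is a matrix of log2 intensity over 48107 probes. The treatment of background, array dates and batches are not given in the sources used here. Probes were named through the platform annotation with symbols updated by RefSeq: 30113 had 1 symbol (20046 genes), 8 several and 17986 none. Promoters came from RefSeq.

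Each probe was tested between groups by limma 3.58.1 under R 4.3.3 (eBayes with an intensity trend, Benjamini-Hochberg over all probes, threshold 0.05), using the 6 arrays in drug for sublines against treated parental cells and all 8 arrays otherwise. The code was tested on simulated data. Members, lists and the array sets were chosen with earlier results of these data known. Named were every member probe, every called gene of the lists, otherwise genes by their brightest probe, and the 5 genes with the highest and lowest r. Deviations of parental and resistant arrays of the same drug correlated at 0.126, 0.184 and 0.199, so the drug was tried as a block. Alternatives were other variance models, filters, scales, centering, probe choice, fits, a t-test, and leaving out each array.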

Additional observations from a re-analysis of the deposited data

Results flagged for a closer look

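Among the 142 probes of the members and the lists around the pump, 2 moved in opposite directions between drugs by over 0.5 on the log2 scale, as 0.692% of all 48107 probes did. Both belong to ATP2B4, a calcium pump of the plasma membrane, so they are not independent. By ILMN_1680579, SunR exceeded parental cells in sunitinib by 0.94, whereas DasR stood at -0.96 relative to parental cells in dasatinib. By ILMN_2367753 these differences were 1.22 and -1.04. PazR stood at -0.59 and -0.52 relative to parental cells in pazopanib by these probes. The signals by ILMN_1680579 were 7.69, 8.04 and 8.80 in DasR, PazR and SunR, against 8.65, 8.63 and 7.86 in parental cells in dasatinib, pazopanib and sunitinib and 7.68 and 7.58 in untreated cells. The difference between drugs rests on single arrays and was not tested. No group held enough arrays for a check of outlying samples.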

How the results depend on the processing

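The ATP1B1 difference kept its sign under every alternative run, which is a description only. The gene was chosen on its levels in the sublines, and all sublines read above all parental arrays on both probes. Leaving out arrays or adding to the intensity could therefore not change the sign. By ILMN_1658071 the difference of the normalized signals ranged over 2.87 to 3.90 against treated parental cells and 3.00 to 4.02 against untreated cells when single arrays were left out. With the array sets as a term the difference between sublines and treated parental cells moved by over 1 SD for ATP1B3 ILMN_1654322 (0.48), FXYD5 ILMN_1704286 (-0.07) and ATP1B2 (-0.03). That fit subtracts untreated replicate 1 minus replicate 2, which was 0.50, -0.55 and 0.14 on these probes. Why the untreated replicates differ was not tested. Between treated and untreated parental cells, where no member passed under any alternative, small differences changed sign. With the array sets as a term they were 0.0041 for ATP1B3 ILMN_1654322, -0.0221 for FXYD5 ILMN_1704286 and 0.0141 for ATP1B2. These values are by construction those without untreated replicate 1. Without single arrays the differences ranged over -0.50 to 0.0041, -0.0221 to 0.53 and -0.13 to 0.0141 for these probes, -0.0302 to 0.28 for ATP1B1 ILMN_1658071 and -0.13 to 0.16 for FXYD5 ILMN_2309848. The count of 7 pathway genes between sublines and treated parental cells was 3 without the intensity trend (SGK3, SLC4A7 and WNK1). None of the 7 called probes passed there (limma, adjusted p of 0.0528 to 0.0788), so SGK3 passed by another probe. The count was 0 with the array sets (where 1 of all 48107 probes was called). By the methods' t-test it was 17 unadjusted and 0 after Benjamini-Hochberg adjustment. It was 10 with the drug as a replicate block and 1 to 9 without single arrays. The 9, without parental cells in sunitinib, included ATP2A2, ATP7A, JUP, TWIST1 and WNK1, which were not among the 7. Against untreated cells the count was 0 to 1 without single arrays (CDH11 without SunR). Between treated and untreated parental cells it was also 0 to 1 (JUP without the array in sunitinib). An untreated group of 1 array was assumed to vary like the others. Dim probes, near the SMARCB1 level of 6.82, limit what can be seen of ATP1B2, most FXYD genes and CDH1.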
